A study of Mus musculus with 8 samples.

Results

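The Id genes (*Id1*, *Id2*, *Id3* and *Id4*) encode inhibitors of DNA binding, and their mRNA was followed here in cultured mouse brain pericytes, the mural cells that wrap capillaries. The members were found by matching the gene symbols to the Ensembl identifiers of the count files, which gave 4 genes of the 54532 listed. All 4 passed the filter on low expression that left 22544 genes for testing. RNA-seq was done on 8 wild-type primary cultures, of which 4 received TGF-β1 (5 μg/mL) and 4 received vehicle, and all were sampled at 48 h. The cells had been grown from papain-digested brain, passaged and kept in pericyte medium with serum. The name pericyte is the study's label for these cells after expansion in culture. The study's methods speak of independent isolates that were given both treatments, but the labels number the vehicle cultures 1 to 4 and the TGF-β1 cultures 5 to 8 without linking them, so the groups were compared as unpaired.

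Id proteins carry a helix-loop-helix but no basic region. They pair with the E proteins (*Tcf3*, *Tcf4* and *Tcf12*) and hold them off DNA, and so restrain the tissue-restricted basic helix-loop-helix factors that need an E protein as partner. In many cell types the Id genes are direct targets of BMP signalling through Smad1 and Smad5. TGF-β, which acts mainly through Smad2 and Smad3, is known to raise them in some cells and to repress them in others. The comparison of TGF-β1 with vehicle gives the direction for each member in these cultures at 48 h. Earlier times were not sampled, and a direct effect cannot be told from an indirect one.

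All 4 Id mRNAs fell with TGF-β1, and by unequal amounts. *Id4* fell most, to a fitted fold of 0.347, followed by *Id2* at 0.459, *Id3* at 0.752 and *Id1* at 0.876. The test was the quasi-likelihood test of edgeR with Benjamini-Hochberg adjustment, and a gene was called at an adjusted p below 0.05. Of all genes tested, 41.3% were called, 20.3% as lower and 20.9% as higher, so a call as such was common. In a bulk culture, fewer cells that express a gene and less RNA per cell cannot be told apart.

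The genes lie on different chromosomes of GRCm38, the assembly that mm10 names, in the GENCODE M21 annotation. *Id1* (ENSMUSG00000042745) is on chromosome 2 from 152736251 to 152737410, and *Id3* (ENSMUSG00000007872) is on chromosome 4 from 136143497 to 136145755, both on the plus strand. *Id2* (ENSMUSG00000020644) is on the minus strand of chromosome 12 from 25093799 to 25097140, and *Id4* (ENSMUSG00000021379) is on the plus strand of chromosome 13 from 48261228 to 48266026. Little of their sequence is shared with other genes. Of the 50-base words in the transcripts of *Id1* and *Id3*, 0 occurred in transcripts of another gene. For *Id2* the share was 0.329%, all in *Gm6175*, and for *Id4* it was 2.08%, in a pair of overlapping antisense genes that held at most 8 counts in any culture.

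Sequence before the start sites was examined because BMP-activated Smads bind GC-rich motifs. RefSeq windows (GRCm38.p6, 250 bases before to 50 bases after the start) matched *Id2*, *Id3* and *Id4*, that is 3 of the 4 members. The GC-rich motifs searched were GGCGCC and GGAGCC, on both strands. GGCGCC was in 2 of the 3 windows and in 11.9% of all 32851 windows in the table, and GGAGCC was in all 3 and in 30.8% of all windows. The shares over all windows were not matched for G and C content, which was higher before these 3 genes, so they do not measure enrichment. The 5 matches are shown with 12 bases on either side, 5′ to 3′ along the gene, with the motif in capitals (the match in *Id3* is GGAGCC on the opposite strand).
Id2, first motif base at -231 (chr12:25096306-25096335, minus strand): tcaggccccctgGGCGCCcagcgcacactg
Id2, first motif base at -88 (chr12:25096163-25096192, minus strand): gtatgatggacgGGAGCCcttccaccaatg
Id3, first motif base at -187 (chr4:136143623-136143652, plus strand): cctcgcatccgaGGCTCCgctgtcctcggc
Id4, first motif base at -148 (chr13:48260956-48260985, plus strand): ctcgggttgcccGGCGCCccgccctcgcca
Id4, first motif base at -13 (chr13:48261091-48261120, plus strand): tactgctgtgccGGAGCCgagcgacgctgt

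*Id4*, the member with the largest fall, had no GENCODE exon of its own in the 250 bases before its RefSeq start. The GENCODE start of *Id4*, at 48261228, lies downstream of that RefSeq start. The 250 bases are shown whole with the same motifs in capitals.
Id4 (chr13:48260866-48261115, plus strand): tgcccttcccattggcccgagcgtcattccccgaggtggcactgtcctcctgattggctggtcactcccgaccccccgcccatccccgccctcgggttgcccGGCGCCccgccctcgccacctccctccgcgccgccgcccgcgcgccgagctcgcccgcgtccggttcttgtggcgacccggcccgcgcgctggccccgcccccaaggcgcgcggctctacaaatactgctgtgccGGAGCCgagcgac

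In GENCODE, longer transcripts make 161 of the 250 bases before the RefSeq start of *Id2* exonic, and all 250 of *Id3*. The windows were rich in G and C, with 75.6% in the 250 bases of *Id4* and 62.8% in those of *Id2* and of *Id3*, against a median of 52.4% over all windows. The motif CAGACA, a Smad3 and Smad4 site, was in none of the 3 windows and in 21% of all windows, and the AP-1 motif TGACTCA and the TATA motif TATAAA were also in none (5.2% and 13.6% of all windows). The E box CANNTG, where E proteins bind, had 1 match in *Id2* and none in *Id3* or *Id4*, and it was in 72.3% of all windows. TGACG, part of the cAMP response element, had 1 match each in *Id3* and *Id4* (20.8% of all windows), and TGGGAA, the core of the Notch-responsive site, had 1 in *Id4* (25.6%). These matches are letters in a window, and no binding was measured.

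*Id2*, which besides E proteins is known to bind the retinoblastoma protein, was lower in each TGF-β1 culture than in any vehicle culture. Its level was 56.7, 56.0, 57.0 and 59.3 CPM in vehicle replicates 1 to 4, and 30.3, 25.2, 23.6 and 25.9 CPM in TGF-β1 replicates 5 to 8, where CPM is the count per 1000000 counts of the library after TMM scaling. The gap between the groups was wider than the range within either, and the highest TGF-β1 culture was replicate 5. The means were 57.3 ± 1.4 CPM (SD, n = 4) and 26.3 ± 2.84 CPM (SD, n = 4). The log2 fold change was -1.12 (standard error 0.05, edgeR adjusted p = 4.87e-16), a fall of 54.1%.

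*Id4*, known from neural progenitors and astrocytes, was the scarcest member, with 223 to 294 counts per vehicle culture and 77 to 115 per TGF-β1 culture. It stood at 4.84, 5.81, 6.12 and 6.37 CPM with vehicle and at 2.09, 1.79, 1.68 and 2.45 CPM with TGF-β1. The groups did not overlap, although the lowest vehicle culture (replicate 1) was set off from the other 3. The means were 5.79 ± 0.671 CPM (SD, n = 4) and 2.00 ± 0.345 CPM (SD, n = 4), with a log2 fold change of -1.53 (standard error 0.12, edgeR adjusted p = 2.62e-14).

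*Id3*, the most abundant member, and *Id1* are classical early BMP response genes. *Id3* was measured at 163, 165, 170.3 and 176 CPM with vehicle and at 138, 127, 125 and 116 CPM with TGF-β1. The groups were separate, and replicate 5 was again the highest of the TGF-β1 cultures. The means were 169 ± 5.59 CPM (SD, n = 4) and 127 ± 8.96 CPM (SD, n = 4), and the log2 fold change was -0.41 (standard error 0.04, edgeR adjusted p = 4.98e-07).

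*Id1* changed least. It was at 75.8, 74.0, 81.8 and 80.8 CPM with vehicle and at 72.3, 65.6, 67.7 and 68.1 CPM with TGF-β1. The groups came close, with 72.3 CPM in TGF-β1 replicate 5 against 74.0 CPM in vehicle replicate 2, but did not overlap. The means were 78.1 ± 3.79 CPM (SD, n = 4) and 68.4 ± 2.79 CPM (SD, n = 4), and the log2 fold change was -0.19 (standard error 0.03, edgeR adjusted p = 8.74e-06), a fall of 12.4%.

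**Figure D1:**
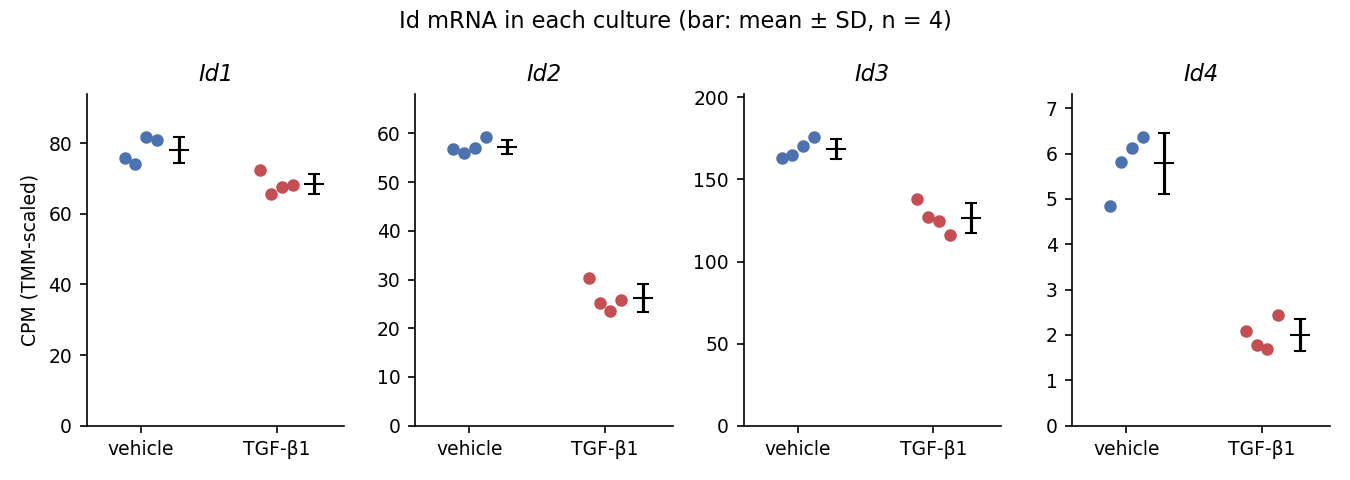
Level of each Id mRNA in CPM after TMM scaling (vertical axes, from 0), with 1 point per culture for vehicle (blue) and TGF-β1 (red) and the mean ± SD of the 4 cultures of each group beside the points. In each panel the TGF-β1 cultures lie below the vehicle cultures, with a wide gap for Id2 and Id4 and a narrow one for Id1.

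For each of the 4 genes an exact permutation test of the CPM values (two-sided) gave p = 0.0286, which is the lower limit for groups of 4 and 4. Groups that did not overlap were seen in 37.9% of all genes tested, with TGF-β1 lower in 18.8% and higher in 19.1%. The size of the change set the members apart more than the call did. A fall at least as large as that of *Id4* was seen in 0.861% of the genes tested, and for *Id2* the share was 2.12%. For *Id3* it was 13.6% and for *Id1* 27.2%. A fall of at least 1 on the log2 scale with an adjusted p under 0.05, which *Id2* and *Id4* met, was seen in 2.83% of the genes tested.

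**Figure D2:**
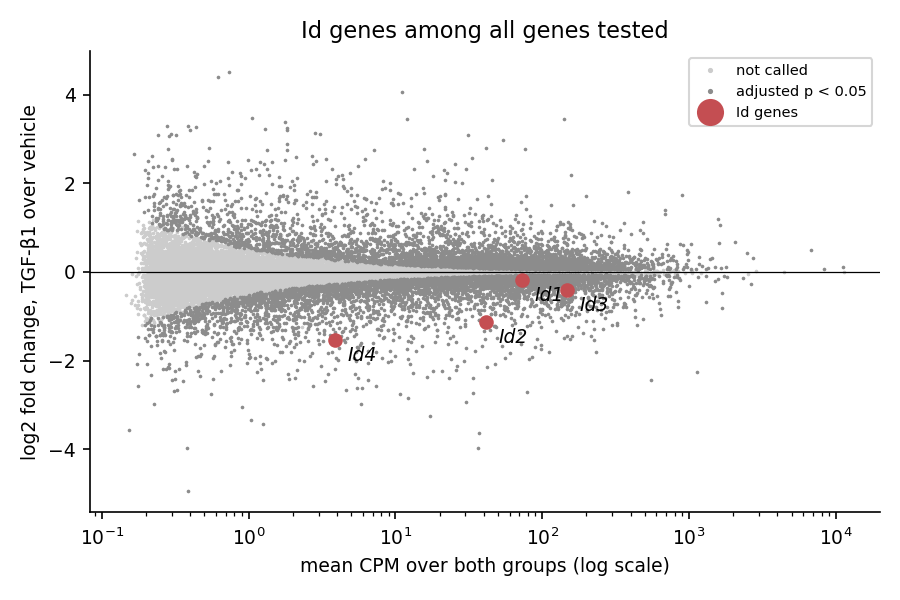
Log2 fold change of TGF-β1 over vehicle (vertical axis) against the mean CPM over both groups (horizontal axis, log scale) for the 22544 genes tested, with genes called at an adjusted p under 0.05 in darker grey and the Id genes in red. Id1 and Id3 lie within the dense band of called genes near 0, and Id2 (-1.12) and Id4 (-1.53) lie below it.

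Per length of exon, the order of the levels was *Id3*, *Id1*, *Id2* and *Id4* in both groups. With vehicle, the levels were 94.1 ± 3.12, 67.3 ± 3.27, 23.5 ± 0.575 and 1.5 ± 0.174 CPM per kb (SD, n = 4) in that order. With TGF-β1 they were 70.8 ± 5, 59.0 ± 2.41, 10.8 ± 1.16 and 0.520 ± 0.0896 CPM per kb (SD, n = 4). Within each culture *Id1* was below *Id3*, at 0.692 to 0.741 of it with vehicle and 0.798 to 0.902 with TGF-β1, so neighbours in this order were apart in every culture.

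The make-up of the family shifted with treatment. The summed level went from 186 ± 6.72 to 141 ± 7.8 CPM per kb (SD, n = 4 each). The share of *Id2* in that sum went from 12.6% ± 0.252 to 7.62% ± 0.494 and that of *Id4* from 0.805% ± 0.0742 to 0.370% ± 0.0697 (SD, n = 4 each). *Id1* took 36.1% ± 0.677 of the sum with vehicle and 41.9% ± 1.24 with TGF-β1, while the ranges of *Id3* overlapped (49.9% to 51.1% and 48.2% to 51.3%). The ratio of *Id1* to *Id2* was 2.77 to 3.01 with vehicle and 5.02 to 6.02 with TGF-β1. The ratio of *Id2* to *Id4* overlapped between the groups (14.7 to 18.5 and 16.7 to 22.8). These ratios are given as descriptions without a test.

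**Figure D3:**
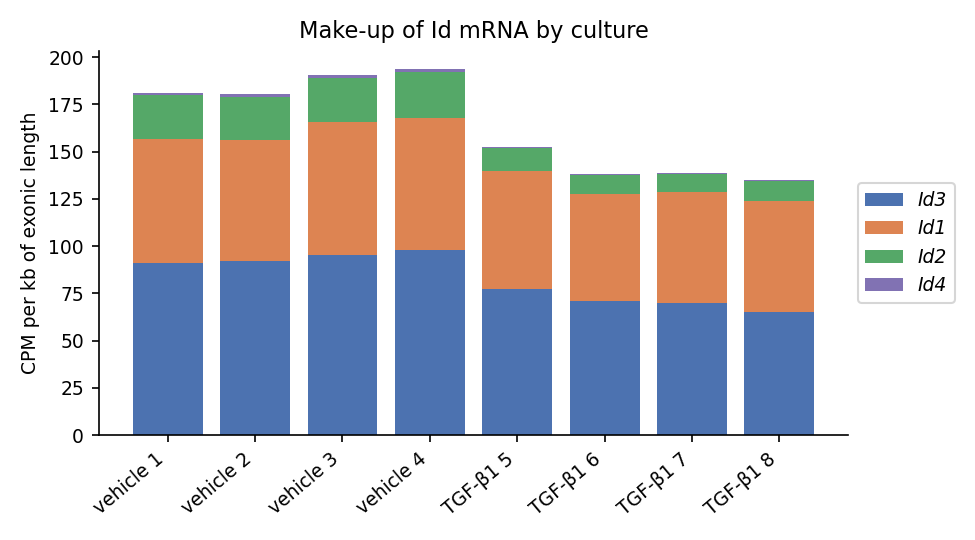
Stacked levels of Id3, Id1, Id2 and Id4 in CPM per kb of exonic length (vertical axis, from 0) for each of the 8 cultures. The TGF-β1 cultures have lower stacks (135 to 152 against 180.4 to 194), and the Id2 and Id4 layers shrink most relative to their own height, while in CPM per kb the Id3 layer loses most.

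The partners of the Id proteins changed by small amounts, the largest of them like that of *Id1*. Of the 3 E protein genes, *Tcf12* fell by 0.19 on the log2 scale, from 279 ± 6.73 to 245 ± 3.2 CPM (SD, n = 4 each, edgeR adjusted p = 7.19e-09), and *Tcf4* fell by 0.09 (edgeR adjusted p = 0.00116). *Tcf3* had a log2 fold change of -0.06 and an edgeR adjusted p of 0.0631. The summed Id level per kb was 2.74 to 3.04 times that of the E proteins with vehicle and 2.25 to 2.54 times with TGF-β1. The size of this ratio depends on the length used, which joins all annotated exons of a gene. That length was 27382 bases for *Tcf4* and 15529 for *Tcf12*, against 1160 to 3849 for the Id genes. Without a length, the Id genes summed to 301 to 322 CPM and the E proteins to 798 to 822 CPM with vehicle. With TGF-β1 the sums were 213 to 243 and 741 to 763 CPM. Of 24 tissue-restricted factors that pair with E proteins, 8 were expressed enough to be tested, of which 1 was higher and 2 were lower. Over all genes tested, 20.9% were called higher and 20.3% lower, the shares to set beside this and the later list counts. *Atoh8*, a BMP-responsive member, fell by 0.79 on the log2 scale (71.8 ± 3.08 to 41.4 ± 3.39 CPM, SD, n = 4 each), and *Twist1*, a mesenchymal factor, fell by 0.34. *Scx*, known from tendon, rose by a log2 fold change of 0.68. Of the Hes, Hey and Dec repressors, which carry their own basic region, 7 of 12 were tested, with 2 higher and 2 lower. *Bhlhe40* was higher (log2 fold change 1.12), as was *Hes1*, a Notch target (0.37), while *Bhlhe41* fell by 0.15. The other lower one, *Hey1*, was at a mean of 0.547 and 0.309 CPM, and its call was lost with DESeq2 (adjusted p = 0.0974), with at least 1 count in any culture as the filter, and without vehicle replicates 2 or 4 or TGF-β1 replicates 5, 6 or 8, which left 1 lower.

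The signalling genes upstream of the Id family moved in both directions. Among the transducers activated by BMP receptors, *Smad1* was higher (log2 fold change 0.31), *Smad9* fell by 0.56, and *Smad5* was at 116 ± 1.59 and 112 ± 1.28 CPM (SD, n = 4 each, edgeR adjusted p = 0.16). Among those of the TGF-β branch, *Smad3* fell by 0.13 on the log2 scale and *Smad2* had an edgeR adjusted p of 0.242. The shared partner *Smad4* had an edgeR adjusted p of 0.0554. The inhibitory Smads went opposite ways: *Smad6*, which mainly blocks the BMP branch, fell by 0.25, whereas *Smad7*, which blocks both, rose by a log2 fold change of 0.60.

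Of 16 BMP and GDF genes, 10 were tested, with 5 higher and 3 lower and a median log2 fold change of 0.26 against -0.01 over all genes tested. *Gdf10* fell by 2.01 on the log2 scale, from 14.9 ± 0.745 to 3.70 ± 0.485 CPM (SD, n = 4 each). *Bmp1*, which is a procollagen proteinase and not a ligand of these receptors, rose by 0.95, and *Bmp8a* rose by 0.94, at a low level of 1.94 and 3.71 CPM. *Bmp4* and *Bmp6*, true ligands named after their values were seen, were higher by 0.31 and 0.21 on the log2 scale. *Bmp2* and *Bmp7*, also named afterwards, fell from means of 0.911 and 1.56 CPM to 0.445 and 0.374 CPM. *Bmp3*, counted as higher and also named afterwards, was at 0.361 and 0.619 CPM, and its groups overlapped. It was not called with DESeq2 (adjusted p = 0.0863). Of 13 receptor and co-receptor genes, 12 were tested, with 4 higher and 4 lower. The higher ones included *Acvrl1*, the receptor ALK1 (log2 fold change 1.30), *Bmpr1b* (0.99) and *Acvr1* (0.45). The lower ones, named after their values were seen, were the co-receptors *Rgma*, *Rgmb*, *Neo1* and *Tgfbr3*.

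Antagonists and other extracellular modulators of BMP were mostly higher, with 10 higher and 3 lower of 14 tested (18 written) and a median log2 fold change of 0.42. *Bmper*, a BMP-binding secreted protein, rose by a log2 fold change of 2.31, from 7.19 ± 0.399 to 35.7 ± 3.24 CPM (SD, n = 4 each). *Fst* (follistatin) and *Fstl3*, which bind activins and some BMPs, each rose by a log2 fold change of 1.47. *Grem1* (gremlin), a secreted BMP antagonist named after its values were seen, went from 172 ± 6.19 to 298 ± 19.2 CPM (SD, n = 4 each), a log2 fold change of 0.79 (edgeR adjusted p = 2.07e-09). The 3 lower ones, also named afterwards, were *Nbl1*, *Twsg1* and *Chrdl2*. *Nbl1* went from 288 ± 6.57 to 219.8 ± 10.4 CPM (SD, n = 4 each), a log2 fold change of -0.39. *Twsg1* had a log2 fold change of -0.14, and *Chrdl2* went from 0.967 to 0.141 CPM (-2.75).

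**Figure D4:**
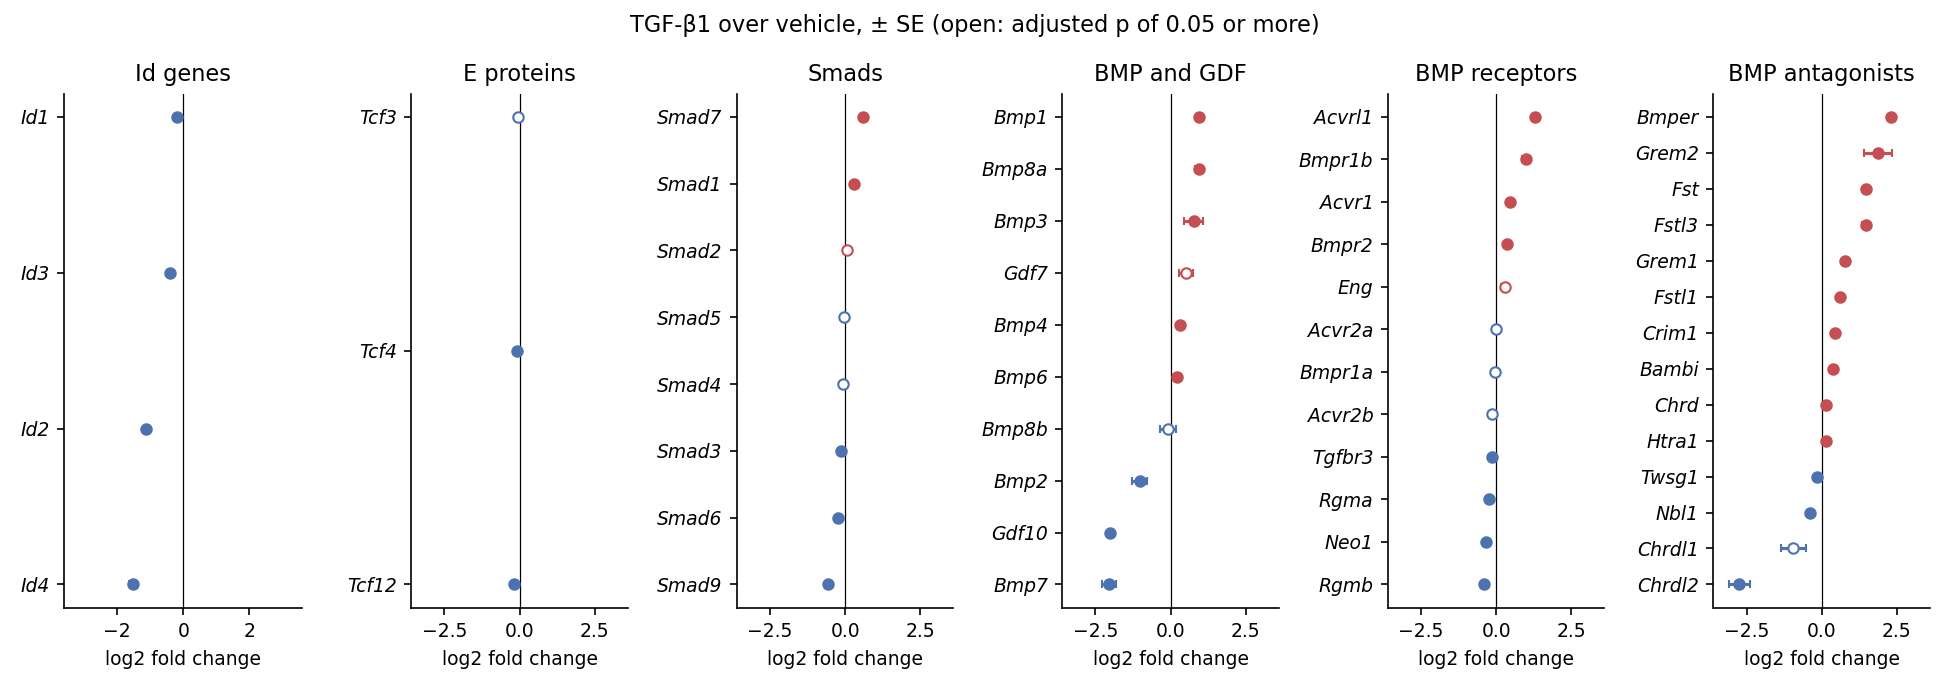
Log2 fold change of TGF-β1 over vehicle (horizontal axes) with its standard error for the Id genes and for the tested E protein, Smad, BMP and GDF, BMP receptor and BMP antagonist genes, ordered within each panel, with positive values in red, negative ones in blue and open points for an adjusted p of 0.05 or more. All Id genes are to the left of 0, the E proteins lie close to 0, and 10 of the 14 antagonists are called to the right of it.

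Other targets were read beside the Id genes. Of 24 textbook BMP targets other than the Id genes, 18 were tested, and 9 were higher and 6 lower, with a median log2 fold change of 0.33. The largest changes among those of at least 1 CPM were in *Bmper*, *Gja4* (a connexin, log2 fold change 1.29) and *Tmem100* (an ALK1-dependent membrane protein, -1.24). *Atoh8*, *Smad6*, *Smad9*, *Msx1* and *Hey1* were the other lower ones, of which *Msx1* was named after its values were seen. Many of the called targets were also counted in lists above, so these lists are not separate evidence. Among the higher ones these were *Smad7*, *Grem1*, *Bmper* and *Bambi*, the last named after its values were seen. Among the lower ones they were *Smad6*, *Smad9*, *Atoh8* and *Hey1*. Of 16 textbook TGF-β and Smad3 targets, 15 were tested and 14 were higher, with a median of 0.97. *Ltbp2*, a latent TGF-β binding protein family member, had a log2 fold change of 1.89, and *Tgfbi* was the exception, with a log2 fold change of -1.5. Of 12 Smad corepressors, cofactors and related regulators, 8 were higher and 1 was lower. *Skil* and *Tgif1*, both Smad corepressors, were higher (log2 fold changes 0.97 and 0.69), and *Zfp423*, a BMP-Smad cofactor, fell by 1.17. *Skil* is also counted among the TGF-β targets. *Atf3*, a repressor of *Id1* in epithelial cells that was named after its values were seen, was at 6.58 ± 0.801 and 5.78 ± 0.468 CPM (SD, n = 4 each, edgeR adjusted p = 0.106).

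Of 16 cell cycle genes classically linked to Id proteins, 14 were tested, with 8 higher and 4 lower and a median log2 fold change of 0.12. *Cdkn1c*, which encodes the inhibitor p57, fell by 1.26 on the log2 scale, while *Thbs1*, an antiangiogenic gene that ID1 represses in other cells, rose by 1.13 and *Ets2* by 0.82. Whether any of these changes depends on the Id genes was not tested. *Cdkn2a* and *Cdkn2b*, which encode the inhibitors p16 and p15, had 0 counts in every culture. Counts of RNA do not tell a silent gene from one that is absent, and the reason was not tested. Of 8 genes listed for Id protein stability, 6 were higher and 0 lower, by small amounts. Among the others, *Cdh1* (edgeR adjusted p = 0.724), encodes E-cadherin and has no such role, since the ubiquitin ligase coactivator also called Cdh1 is the product of *Fzr1*. *Usp1*, which removes ubiquitin from Id proteins, rose by a log2 fold change of 0.18, *Fzr1* by 0.12 and *Cdc20* by 0.10, the last without a call in DESeq2 (adjusted p = 0.0675). The number of higher genes was 3 with at least 1 count in any culture as the filter or without vehicle replicates 1 or 2 or TGF-β1 replicates 5 or 6, and 2 without TGF-β1 replicate 7.

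The genes most like each member were taken as those with the smallest root-mean-square difference of log2 CPM over the 8 cultures, after the vehicle mean was set to 0, among genes of at least 10 CPM. The difference between the groups makes up most of each profile. For *Id2* they were *Pdgfd* (0.053), *Ppp4r4* (0.069), *Adh7* (0.070), *Epas1* (0.080) and *Crybg1* (0.082). For *Id4* they were *Mgat4a* (0.186), *Ehd3* (0.206), *Eya1* (0.211), *Stxbp6* (0.216) and *Ndrg1* (0.221), less close because of the spread of *Id4* itself. *Id3* was nearest to *Nbl1* (0.030), *Gypc* (0.035), *Insig2* (0.035), *Gpam* (0.036) and *Aldh4a1* (0.037). For *Id1* they were *Rnf141* (0.018), *Jund* (0.028), *Pepd* (0.031), *Rnh1* (0.034) and *Zfp706* (0.035). Between the members the difference ran from 0.167 for *Id1* and *Id3* to 0.968 for *Id1* and *Id4*, with 0.332 for *Id2* and *Id4*. These pairs were not picked as the closest of many genes, so larger values than those above were to be expected. They mostly restate the unequal log2 fold changes.

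The library totals ran from 45255235 to 47651397 counts. The pericyte label was checked with 12 markers, of which 9 were tested, with 3 higher and 3 lower. *Pdgfrb*, *Notch3* and *Cspg4* were well expressed (202, 88.5 and 82.9 CPM with vehicle), but *Kcnj8*, *Abcc9* and *Vtn* were too low to be tested. *Des* and *Higd1b* were at 0.685 and 0.278 CPM with vehicle, so the list bore out the label only in part. The markers that changed went both ways, and those given here were named after their values were seen. *Rgs5* fell by 2.02 on the log2 scale, from 8.62 ± 0.466 to 2.13 ± 0.245 CPM (SD, n = 4 each), and *Anpep* fell by 0.43. *Cspg4* was higher by 1.03, *Mcam* by 0.94 and *Pdgfrb* by 0.53 on the same scale. Because Id genes are also strong in endothelial cells and astrocytes, the markers of those cells were summed. The 10 endothelial markers summed to 492 to 505 CPM with vehicle and 491 to 514 with TGF-β1, most of it *Cdh5*, with *Pecam1* at 1.11 CPM in both groups and *Cldn5*, *Tie1* and *Emcn* too low to be tested. The 10 astrocyte and neural progenitor markers summed to 236 to 245 CPM with vehicle and 189 to 204 CPM with TGF-β1. They went both ways, with 3 higher and 5 lower of 9 tested. The largest part of the sum was *Sox9* (146 and 109.9 CPM), whereas *Gfap* was at 0.879 and 0.947 CPM and *Aqp4* had 0 counts in the vehicle cultures. Larger falls on the log2 scale were those of *S100b* (4.80 ± 0.13 to 1.64 ± 0.216 CPM, log2 fold change -1.55), *Slc1a2* (38.5 ± 2.88 to 16.3 ± 0.996 CPM, -1.24) and *Sox2* (8.45 ± 0.309 to 3.65 ± 0.167 CPM, -1.21; SD, n = 4 each). *Gjb6* went from 0.719 to 0.0434 CPM, whereas *Nes*, *Slc1a3* and *Aldh1l1* were higher (log2 fold changes 0.63, 0.64 and 0.77). The part of such cells in the fall of the Id genes was not tested. The 10 microglia markers summed to 104 to 109 CPM and 103 to 105 CPM, nearly all *Tmem119*. The 10 oligodendrocyte and neuron markers summed to 8.36 to 10.9 and 14.3 to 17.3 CPM, with 2 higher and 1 lower of 7 tested, and *Tubb3* went from 2.11 to 7.91 CPM. The 10 fibroblast markers summed to 2369 to 2469 and 3149 to 3329 CPM, with 1 higher and 4 lower of 7 tested. The higher one was *Col1a1* (1587 to 2525 CPM), which is also among the TGF-β targets above, while *Cemip* (483 to 428 CPM), *Foxc1* (239 to 193 CPM) and *Dcn* (52.1 to 46.7 CPM) fell. *Pdgfra* was well expressed, at 62.5 and 63 CPM (edgeR adjusted p = 0.82), whereas *Lum*, *Slc6a13* and *Aldh1a2* were too low to be tested.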

How the data were processed

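The deposited values are raw counts per gene, 1 library per culture. According to the methods and the submitters' processing notes, the authors aligned reads to mm10 with STAR 2.7.5c, removed duplicates with SAMtools 1.15 and counted with featureCounts 2.0.3. The annotation release and strand setting are not given in the sources used here. Of 54532 identifiers, 54409 had a symbol. Counts were tested with edgeR 4.0.16 in R 4.3.3 (filterByExpr, TMM, robust quasi-likelihood, Benjamini-Hochberg adjustment over 22544 genes, threshold 0.05), with no covariate, and the standard error was the log2 fold change divided by the square root of F. The code was tested on simulated data. Alternatives were DESeq2 1.42.0, other scalings and filters, halved counts and each culture left out. Halving was tried because 68.5% to 70.2% of counts from 1 to 20 were even, so counts may be read mates. Pairs of cultures within a group had a chi-square per degree of freedom of 2.21 to 3.69. With counts halved it was 1.12 to 1.95, where sampling noise alone gives about 1. P-values measure the spread between these cultures, which was narrow if the counts are read mates. A count of 3 equals 0.063 to 0.0663 CPM.

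The 4 members and all gene lists were chosen with earlier results of these data known, so the calls are not independent support for the choice. Named genes were the Id, E protein and Smad genes, the 3 largest called changes at 1 CPM or more of each other pathway list, and the 5 genes most like each member. Cell type markers were described by counts and sums, and any other gene was named after its values were seen. A gene that this rule names is not reported here. Lists are described by counts and medians, without a set test. No protein sequences were used here.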

Additional observations from a re-analysis of the deposited data

Results flagged for a closer look

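In 88 groups of 4 values (44 genes in each group of cultures: the Id genes and those named from the pathway lists, without the markers and the genes most like a member), 3 had a culture far from the other 3 by Dixon's test, where chance at 1 in 20 gives 4.4. None was an Id gene. For *Acvr1*, TGF-β1 replicate 8 had 77.5 CPM and the nearest culture 72.5 CPM. For *Smad5*, TGF-β1 replicate 7 had 114 CPM and the nearest 111 CPM. For *Smad4*, TGF-β1 replicate 8 had 105 CPM and the nearest 108 CPM.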

How the results depend on the processing

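All 4 Id genes stayed lower with an adjusted p under 0.05 in each of the 7 alternatives of tool, scaling, filter and counting unit and in each of the 8 fits with a culture left out. With a culture left out, the log2 fold change ranged from -0.22 to -0.16 for *Id1*, from -1.20 to -1.08 for *Id2*, from -0.46 to -0.36 for *Id3* and from -1.63 to -1.46 for *Id4*. Under the 7 other alternatives it ranged from -0.20 to -0.19, from -1.14 to -1.12, from -0.42 to -0.41 and from -1.54 to -1.52, in the same order, and the highest adjusted p of any fit was 0.000275, for *Id1*. The number of genes called was 9304 and ranged from 8559 to 9311. Of 540 counts of higher or lower list members under the alternatives, 28 moved by more than 1.5 times, each from a count of at most 6. Among the markers these were the lower fibroblast genes (2 without vehicle replicates 1, 3 or 4, in place of 4), the lower endothelial genes (1 without vehicle replicate 1, in place of 2), and single microglia, oligodendrocyte and neuron genes. The cause was not tested. No paired analysis was possible because the groups share no replicate number. *Id4* rests on the fewest counts of the 4 genes, 77 to 115 in a TGF-β1 culture, and on fewer read pairs than that if the counts are read mates.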
